A study of Mus musculus with 9 samples.

Results

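Expression of 9 genes of retinoid synthesis, transport, binding and reception was examined in mouse RNA labelled as pancreas on postnatal day 3 (PND3). The genes, Rbp4, Stra6, Aldh1a1, Aldh1a7, Aldh1a2, Aldh1a3, Crabp1, Crabp2 and Rarb, were picked by name from these same PND3 arrays with their values known. All their probes were taken, 11 of the 41174 gene probes on the array, and the 9 genes stood among 20923 genes measured. Because the genes were picked from these values, what follows is a description of 2 RNA pools, with no test.

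The mutant pool held RNA from 2 pups carrying the Glis3zf/zf genotype, and the WT pool held RNA from 2 wild-type pups. Both came from the C57BL/6 strain, and nothing in the labels names a treatment. Glis3 encodes a Krüppel-like zinc finger protein that acts on transcription, and the study asked about its part in pancreatic beta cells. From 500 ng of RNA, each pool was labelled with Cy3 for 1 array and with Cy5 for the other, and the pools were hybridised together on both arrays, so the arrays are a dye swap of the same material and count as 1 replicate per genotype. The array that had the mutant pool in Cy3 is called the first array and the other the second. The spread between arrays therefore measures the assay and not the mice, and the number of arrays limits the precision. The embryonic samples of the series (4 mutant and 3 WT at E15.5) were not used here.

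Retinol travels in blood bound to retinol binding protein, enters cells through carriers such as Stra6, and is oxidised first to retinal and then, by retinaldehyde dehydrogenases, to retinoic acid. Cellular binding proteins hand retinoic acid to nuclear receptors, which regulate genes next to their binding sites, and Cyp26 enzymes break it down. In mouse embryos retinoic acid is needed for growth of the dorsal pancreas, and in the developing mouse kidney stromal cells that make it maintain Ret in the ureteric bud.

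Levels are the scanner software's processed signals, in arbitrary scanner units that cannot be compared between probes. Ratios are log2 of mutant over WT, after background correction and loess normalization within each array, so that 1 is 2-fold and 0 is no difference. For all genes measured the median ratio was -0.01, the quartiles were -0.11 and 0.09, and the technical SD from the difference between arrays was 0.12. Median centring in place of loess put the median of all genes at -0.11, and it moved bright probes more than dim ones. Ratios with that scaling are read against a shift that depends on signal. All 11 probes passed the filter of being well above background in at least 1 pool on both arrays, Crabp2 through the WT pool, and no spot of these probes was saturated.

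The label pancreas was set against marker genes, as a coarse check, since signals of different probes do not measure amounts. Of 7 endocrine markers 4 were measured, and the hormone genes Ins1, Gcg and Ppy were not well above background in either pool on both arrays. Ins2 was measured at a mean signal of 88.9 in mutant RNA and 94.7 in WT RNA. Of 14 acinar markers 11 were measured, none with a signal over 1000 in either pool. All 13 kidney nephron markers were measured, 9 of them with a signal over 1000 in both pools, among them Kap, with a mean signal of 55103 in mutant RNA and 82327 in WT RNA, Umod, with 47875 in mutant RNA and 50921 in WT RNA, and Lrp2, with 37840 in mutant RNA and 41915 in WT RNA. All 5 kidney stroma markers were measured, with summed signals of 75370 and 66156 in the mutant pool and 74243 and 67109 in the WT pool. With Ins1, Gcg and Ppy not well above background and all nephron markers measured, the RNA goes against its tissue label, so the pools are called here by genotype and age alone. The Glis3 probe gave 3.88 and 3.39 in the mutant pool, not well above background on either array, and 22.1 and 21.5 in the WT pool, well above background on both. Where this probe lies relative to the mutated part was not determined here.

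In the mutant pool, 1 of the 9 genes, Aldh1a1, was at least 2-fold higher on both arrays, and none was 2-fold lower. Over all genes measured 0.0335% were at least 2-fold higher and 0.158% at least 2-fold lower. At 1.5-fold, 2 of the 9 were higher (Aldh1a1 and Rbp4) and 0 lower, against 0.258% higher and 0.617% lower over all genes. Ratios were above 0 on both arrays for 7 of the 9, below 0 on both for Crabp2, and of mixed sign for Rarb, with 30.9% of all genes above 0 on both arrays. The median of the 9 ratios was 0.39, beside -0.01 for all genes. The genes were chosen from this comparison, so the counts and percentages are given side by side and nothing is read from them. In bulk RNA, fewer cells of a type and less RNA per cell cannot be told apart.

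Probe sequences are shown because Aldh1a1 and Aldh1a7 are close relatives, which a probe could read together. The first 30 of 60 bases are given for the 3 genes with the highest ratios and for both Aldh1a3 probes.
Aldh1a1: gactagttgtgacttaagctctgtccctca
Aldh1a7: ttccttgaactatgtaccatgcatgataac
Rbp4: tactgaaggtccctgaaagatgtttgaggc
Aldh1a3, bright probe: ggggattttgatcttaagttcagattgtgt
Aldh1a3, dim probe: actatttgcttctctttttctaaacctatt
Nothing is in capitals because no part is singled out. The full Aldh1a1 and Aldh1a7 probes shared no run longer than 8 bases, which was also the longest run among all 55 pairs of the 11 probes. No other gene probe on the array shared 20 bases in a row with any of them. Where on the transcript each probe lies was not determined here, because no genome was used.

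Among transport genes, Rbp4, the blood carrier of retinol, had signals of 3696 and 3336 in the mutant pool, against 2091 and 1911 in the WT pool. Values are given for the first array and then for the second, here and in what follows. Both mutant signals lay above both WT signals. The log2 ratio was 0.87 and 0.75, a mean of 0.81 or 1.75-fold, and 24 genes of those measured had a higher mean. With median centring it was 0.73 and 0.49, and with the scanner software's own ratio 0.82 and 0.80. Rbp4 lies at chr19:38116620-38125321 (GRCm38.p6, gene span in RefSeq).

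Stra6, the cell surface receptor through which Rbp4 delivers retinol, had signals of 168 and 154 in the mutant pool, against 127 and 129 in the WT pool. The mutant signal was the higher on both arrays, but the ratios of 0.29 and 0.11 lay 0.18 apart, with a mean of 0.20. Median centring gave 0.27 and 0.04. The gene spans chr9:58063793-58154004, and 2106 genes had a higher ratio.

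**Figure D1:**
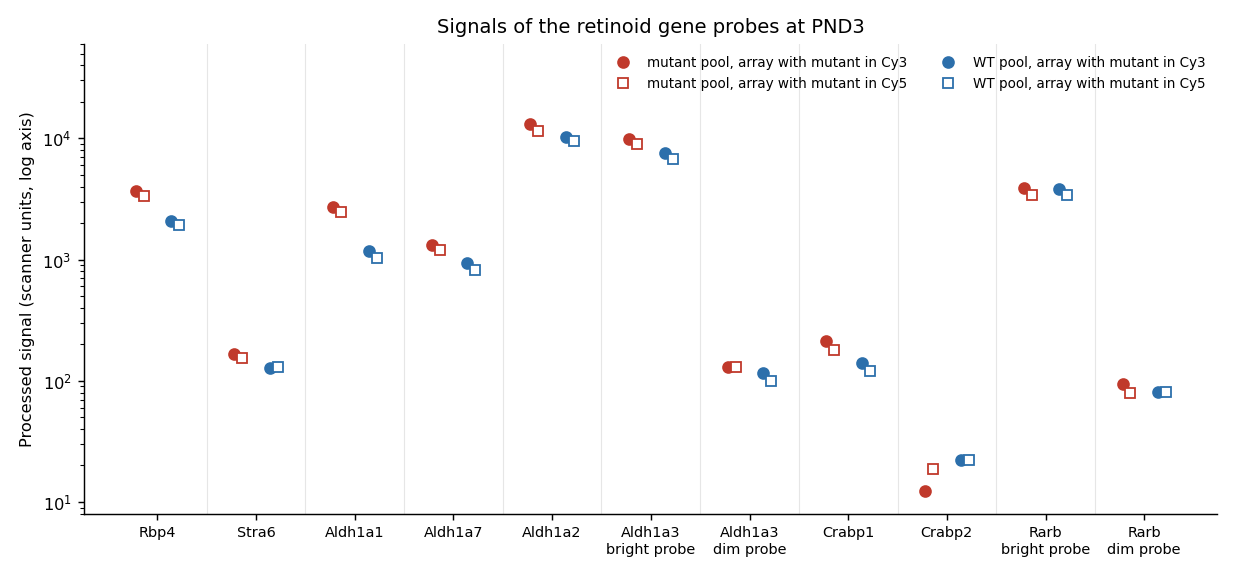
Processed signal (scanner units, log axis) of each of the 11 probes in the mutant pool (red, left) and the WT pool (blue, right), with circles for the first array (mutant pool in Cy3) and squares for the second (mutant pool in Cy5). Rbp4, Stra6, Aldh1a1, Aldh1a7, Aldh1a2, Crabp1 and both Aldh1a3 probes sit higher in the mutant pool on both arrays. Crabp2 sits lower there, close to background, Rarb does not separate, and heights of different probes are not comparable.

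Among the retinaldehyde dehydrogenases, Aldh1a1, a cytosolic enzyme that oxidises retinal to retinoic acid, stood furthest from 0. It had signals of 2727 and 2474 in the mutant pool, against 1172 and 1039 in the WT pool. The lower mutant signal was above the higher WT signal by a wide margin. The log2 ratio was 1.13 and 1.22, a mean of 1.17 or 2.26-fold, and 4 genes of 20923 had a higher mean ratio. The scanner's own ratio was 1.22 and 1.25. With median centring the values were 1.02 and 0.97, so the second array was just short of 2-fold and the gene was no longer counted, while 0.0287% of all genes were counted as 2-fold higher with that scaling.

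Aldh1a7, a rodent relative of Aldh1a1, had signals of 1324 and 1202 in the mutant pool, against 942 and 823 in the WT pool. The order of the pools was the same as for Aldh1a1, and the ratio was smaller. The log2 ratio was 0.41 and 0.55, a mean of 0.48 or 1.40-fold, and 177 genes had a higher mean. Median centring gave 0.32 on both arrays. A difference between the ratios of Aldh1a1 and Aldh1a7 was not tested.

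Aldh1a1 (chr19:20492583-20643463) and Aldh1a7 (chr19:20692953-20727556) are neighbours on mouse chromosome 19, with 49489 bases between their RefSeq spans. The 250 bases before the RefSeq start of each, for Aldh1a1 the start with the higher coordinate of a pair, are shown because they share a long identical stretch, in capitals. Both are from RefSeq on GRCm38.p6, 5′ to 3′ along the gene, with Aldh1a1 at chr19:20601718-20601967 on the plus strand and Aldh1a7 at chr19:20727557-20727806 on the minus strand.
Aldh1a1: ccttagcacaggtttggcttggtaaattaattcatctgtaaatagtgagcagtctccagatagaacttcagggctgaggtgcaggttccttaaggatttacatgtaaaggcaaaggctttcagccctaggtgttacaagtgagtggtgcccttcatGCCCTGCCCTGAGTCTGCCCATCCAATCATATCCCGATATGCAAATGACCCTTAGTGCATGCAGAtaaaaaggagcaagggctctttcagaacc
Aldh1a7: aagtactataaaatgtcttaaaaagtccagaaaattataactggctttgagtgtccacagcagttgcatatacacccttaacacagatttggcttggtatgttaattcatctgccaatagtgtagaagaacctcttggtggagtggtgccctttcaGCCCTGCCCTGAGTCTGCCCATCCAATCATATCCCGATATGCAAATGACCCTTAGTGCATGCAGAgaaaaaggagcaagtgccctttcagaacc
The identical stretch is 65 bases long and runs from -94 to -30 in both genes, counted from the start site. When RefSeq's windows of 250 bases before and 50 after the start were aligned, 225 positions were paired and 208 of them (92.4%) were identical. Over the other 57 pairs of promoter windows of different retinoid genes the longest shared run was 12 bases. RefSeq windows were matched for 7 of the 9 genes, 12 windows in all.

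Letters of known motifs were searched on both strands of those windows. The octamer ATGCAAAT lies inside the shared stretch, at -56 to -49 in Aldh1a1 and Aldh1a7, and a copy is found at -84 to -77 in Aldh1a2. It occurs in 1.74% of 32817 mouse promoter windows. CCAAT was found in Aldh1a1, Aldh1a7, Aldh1a2, Rbp4 and Stra6, and in 37.4% of all windows. TATAAA was found in Aldh1a7 and Rbp4, and in 13.6% of all windows. These are matches of letters and say nothing of a factor.

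Aldh1a2, the main source of retinoic acid in the early mouse embryo, had signals of 13104 and 11396 in the mutant pool, against 10193 and 9566 in the WT pool. The pools did not overlap. The log2 ratio was 0.44 and 0.19, a mean of 0.32, and the arrays lay 0.24 apart, more than for any other of the 11 probes. With median centring the values were 0.19 and -0.05, so the direction flipped on the second array. The gene spans chr9:71215789-71296243.

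Aldh1a3, a further retinaldehyde dehydrogenase (chr7:66390892-66427477), was read by a pair of probes. The bright one had signals of 9847 and 9050.1 in the mutant pool, against 7614 and 6725 in the WT pool. The dim one had 129 and 129 in the mutant pool, against 117 and 99.3 in the WT pool. Both placed the mutant pool higher on both arrays. The bright probe gave a log2 ratio of 0.43 and 0.38, a mean of 0.40, and the dim probe 0.12 and 0.16, a mean of 0.14. With median centring the means were 0.16 for the bright probe and 0.10 for the dim probe, and with the scanner's ratio 0.40 and 0.26. The accession of the dim probe had no match in RefSeq, so which transcript it reads was not determined.

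**Figure D2:**
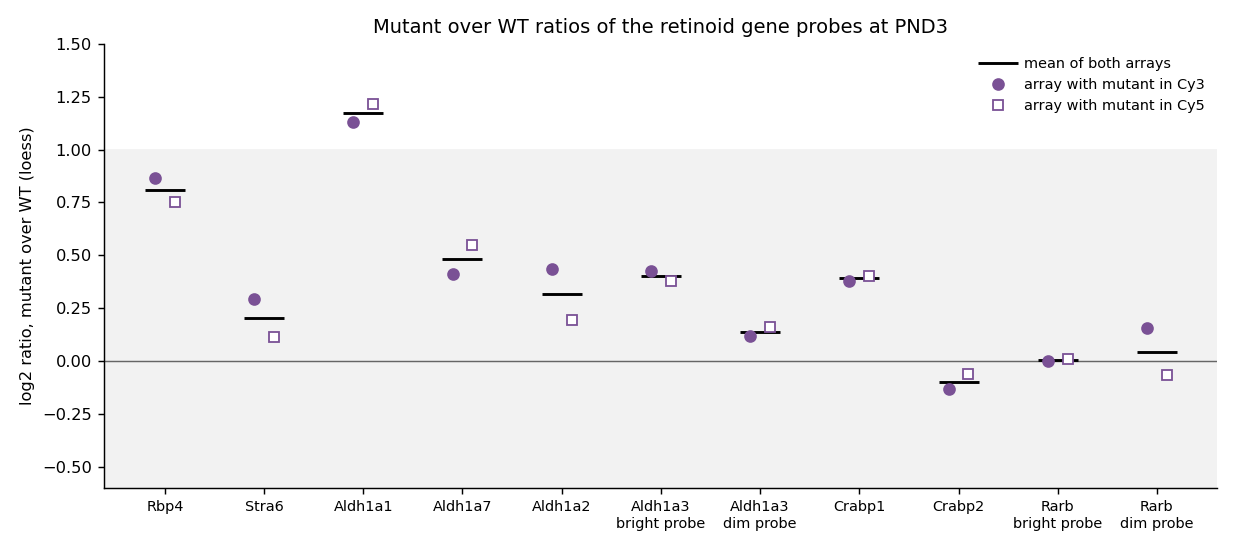
Log2 ratio of mutant over WT (loess) for each of the 11 probes, with a circle for the first array (mutant pool in Cy3), a square for the second (mutant pool in Cy5) and a bar for their mean; values inside the grey area are less than 2-fold higher. Aldh1a1 lies above 1 on both arrays (1.13 and 1.22), Rbp4 follows at 0.87 and 0.75, and the bright Rarb probe lies at 0 on both.

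Among the binding proteins, Crabp1, which holds retinoic acid in the cytoplasm, had signals of 212 and 179.8 in the mutant pool, against 140.3 and 119.5 in the WT pool. Both mutant signals exceeded both WT signals. The log2 ratio was 0.38 and 0.40, a mean of 0.39 or 1.31-fold, and 375 genes had a higher mean. The scanner's ratio, which has no offset added to dim signals, was 0.59 on both arrays. Median centring gave 0.35 and 0.33. The gene spans chr9:54764748-54773110.

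Crabp2, which delivers retinoic acid to its receptors, was close to background. It had signals of 12.4 and 18.8 in the mutant pool, where it was well above background on 1 of 2 arrays, against 22.4 and 22.1 in the WT pool, where it was on both. The log2 ratio was -0.13 and -0.06, a mean of -0.10, whereas median centring turned the mean to 0.03 and the scanner's ratio put it at -0.54. Its direction therefore rests on the processing. The gene spans chr3:87948693-87953372.

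Rarb, a nuclear receptor for retinoic acid that is itself a known target of it (chr14:16430839-17082331), had signals of 3867 and 3419.9 in the mutant pool, against 3844 and 3425 in the WT pool. The pools overlapped on the bright probe. This probe was printed as 10 spots on each array, so its reading error can be seen directly. The spots gave log2 ratios with an SD of 0.053 and 0.060 (10 spots each), from -0.06 to 0.10 on the first array and from -0.12 to 0.10 on the second. The mean of the arrays was 0.00, and 9384 genes had a higher ratio. Median centring, which moved bright probes more than dim ones, gave -0.21, beside -0.11 for all genes. With that scaling 34.0% of all genes had a lower ratio.

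The second Rarb probe, annotated in the scanner files to the RAR-beta 4 isoform, was dim, with 93.5 and 79.4 in the mutant pool, against 81.5 and 80.3 in the WT pool. Its pools overlapped too, and the log2 ratio was 0.15 and -0.07, of opposite signs on the arrays.

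A promoter of Rarb is shown because it carries a response element known for this gene. It is the 250 bases before the RefSeq start on the minus strand, chr14:16575477-16575726 (GRCm38.p6), 5′ to 3′ along the gene, with the direct repeat in capitals.
Rarb: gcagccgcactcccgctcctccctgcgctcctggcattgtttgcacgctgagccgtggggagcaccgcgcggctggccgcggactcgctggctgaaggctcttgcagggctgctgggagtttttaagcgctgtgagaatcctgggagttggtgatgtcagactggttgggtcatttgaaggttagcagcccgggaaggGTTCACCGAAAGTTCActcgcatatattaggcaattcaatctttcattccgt
The repeat was matched as GTTCA, any 6 bases, and GTTCA, at -52 to -37 from the start. Of the 12 windows of retinoid genes it was found in Rarb alone, and of all 32817 windows in 0.0762%. The forms with GGTCA in place of either or both copies were also searched on both strands, and 0.247% of all windows held at least 1 of these forms. No other retinoid gene window did, which says only that these letters are absent from the windows read.

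**Figure D3:**
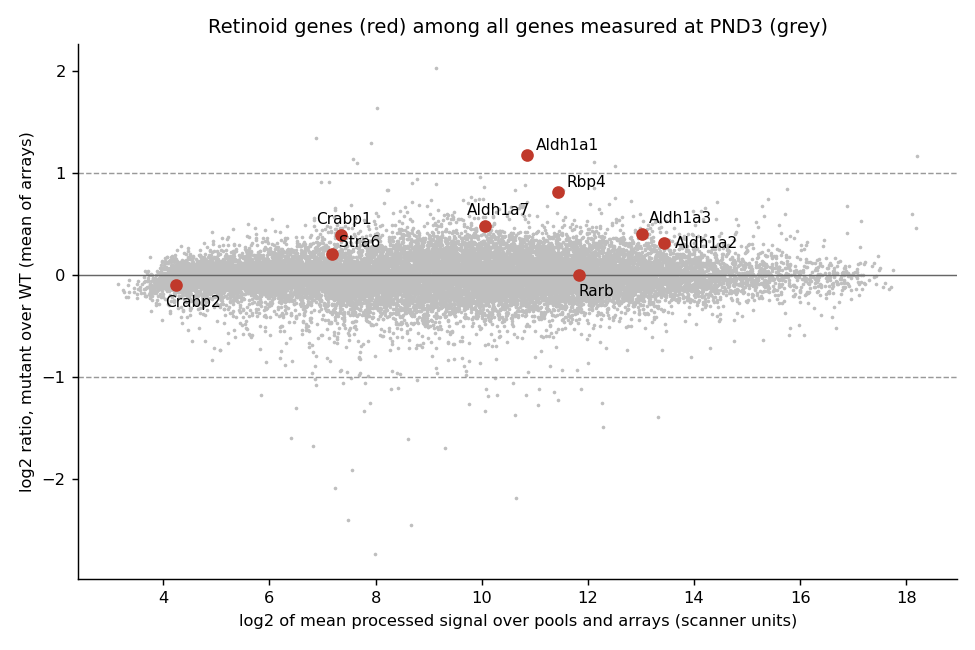
Log2 ratio of mutant over WT (mean of both arrays, loess) against log2 mean signal for 20923 genes (grey points) and the 9 retinoid genes (red points, bright probe where a gene has a pair); dashed lines mark 2-fold. Aldh1a1 and Rbp4 stand above most genes of similar signal, while Rarb (0.00) and Crabp2 (-0.10) lie within the body of the points.

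By how their ratios lay on the 2 arrays, the genes nearest to Aldh1a1 were taken among 20114 whose signal exceeded background in each pool on each array. The nearest was 4930429M06Rik, at a distance of 0.059, with ratios of 1.12 and 1.16. Crisp1, a cysteine-rich secretory protein known from the epididymis, followed at 0.117, with 1.09 and 1.11. The Y-linked translation factor gene Eif2s3y was next at 0.188, with 1.31 and 1.27. Crisp1 is on a list of 6 testis and epididymis markers, all measured. Of these 6 only Crisp1 was past 1.5-fold, beside 0.258% of all genes higher. The list had a median of -0.03 and a range from -0.24 to 1.10. Likeness over 2 arrays of the same pools is a weak measure and is given as a description.

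Y-linked genes, which only male RNA holds, also had ratios above 0. Ddx3y had ratios of 0.89 and 0.93, and Kdm5d of 0.43 and 0.31, both picked after their values were seen. The sex of the pups is not given in the labels used here. Markers of other tissues also stood apart between the pools. Of 10 ovary and oocyte markers 8 were measured and 5 were at least 1.5-fold lower in the mutant pool, beside 0.617% of all genes. Fst (0.32 and 0.31) and Foxl2 (0.02 and 0.18) were above 0 on both arrays. Zp2, counted as lower, and Figla, not counted, were well above background in the WT pool alone. For such genes a lower ratio was the only possible outcome. The other 4 counted as lower were Padi6 (-2.46), Zp3 (-1.92), Gdf9 (-1.61) and Amhr2 (-1.34), each at least 2-fold lower. Their mutant signals also cleared background on each array, so that limit does not apply to them. Summed signals of the ovary and oocyte list were 621 and 532 in the mutant pool, against 2413 and 2190 in the WT pool. Of 7 fat markers, all measured, 4 were at least 1.5-fold lower in the mutant pool, beside 0.617% of all genes. The 7 had a median of -0.85 and a range from -1.17 to -0.13. Their summed signals were 66610 and 54272 in the mutant pool, against 73949 and 69639 in the WT pool. Most of these sums came from Fabp4, whose ratio was -0.21. Of 5 mesothelium markers 4 were above 0 on both arrays, beside 30.9% of all genes, with a median of 0.28 and a range from Lrrn4 at -0.01 and Wt1 at 0.02 to Msln at 0.55. Of 8 liver markers 5 were measured, among them Ahsg at 1.64 and Afp at -0.64. The 13 nephron markers had a median of -0.09 and a range from -0.59 to 0.49. Their summed signals were 217349 and 198327 in the mutant pool, against 244552 and 236623 in the WT pool. Most of that gap came from Kap alone, with 56708 and 53498 in the mutant pool, against 82793 and 81861 in the WT pool. The part of the pups' sex and of these tissues in the ratios of Aldh1a1, Rbp4 and the other retinoid genes was not tested.

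The rest of the pathway was read from a list of 76 other gene symbols in 9 roles, older names included, of which 60 were measured under the symbol listed. With loess none was 2-fold apart on both arrays, 0 were 1.5-fold higher and 1 was 1.5-fold lower, beside 0.258% of all genes higher and 0.617% lower at 1.5-fold. Ratios were above 0 on both arrays for 19, beside 30.9% of all genes, below 0 for 28 and mixed for 13. The median was -0.02, close to the -0.01 of all genes. Median centring, which moved bright probes more than dim ones, put that median at -0.19. Of the 60 measured, 34 had a signal over 1000 in both pools.

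The gene past 1.5-fold was Ttr, transthyretin, which binds Rbp4 in blood. It had signals of 589 and 493 in the mutant pool, against 1242 and 1015 in the WT pool, and ratios of -0.96 and -1.01. It was at least 2-fold lower on both arrays with median centring (-1.05 and -1.22) and with the scanner's ratio (-1.08 and -1.04). Rbp4 was higher in the mutant pool, and Ttr was lower there. Of the other carriers measured, Rbp7 was furthest from 0, with signals of 261 and 219 in the mutant pool, against 286 and 251 in the WT pool, and a ratio of -0.12. Among storage and release genes, the carboxylesterase Ces1d had a ratio of -0.43 and the acyltransferase Dgat1 0.19.

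Among the enzymes that interconvert retinol and retinal, the alcohol dehydrogenase Adh1 was highest, with signals of 22395 and 21122.5 in the mutant pool, against 15984 and 13922 in the WT pool. Its ratio was 0.55 on both arrays, or 0.29 with median centring. Rdh13, a retinol dehydrogenase, stood at 0.43, and the 18 measured enzymes of this role had a median of 0.00. Of the other aldehyde-oxidising enzymes, Aldh8a1 had a ratio of -0.47 and Aox3 of 0.29.

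Of the Cyp26 enzymes that clear retinoic acid, Cyp26a1, itself a known target of retinoic acid, had signals of 105 and 87.3 in the mutant pool, against 195 and 167 in the WT pool. Both mutant signals lay below both WT signals, with ratios of -0.57 and -0.67. The scanner's ratio was -0.91. Cyp26b1 had a ratio of 0.18, which was 0.00 with median centring, and Cyp26c1 was not measured.

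Among the receptors other than Rarb, Rara stood at 0.05, Rarg at -0.05, Rxra at -0.07, Rxrg at -0.16 and Rxrb at 0.35. Rxrb had signals of 4313 and 3538 in the mutant pool, against 3039.9 and 3096 in the WT pool, and ratios of 0.52 and 0.19 on the separate arrays. The alternative carrier Fabp5 and receptor Ppard stood at -0.03 and 0.06, and the coregulators Ncoa2 and Nrip1 both at -0.24. Of 18 symbols listed for genes known to respond to retinoic acid 13 were measured, with a median of -0.01. The homeobox gene Meis2 had a ratio of -0.23. The lowest was Bhlhe40, a transcriptional repressor, at -0.63 and -0.58, with signals of 1848 and 1635 in the mutant pool, against 3002 and 2439 in the WT pool.

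**Figure D4:**
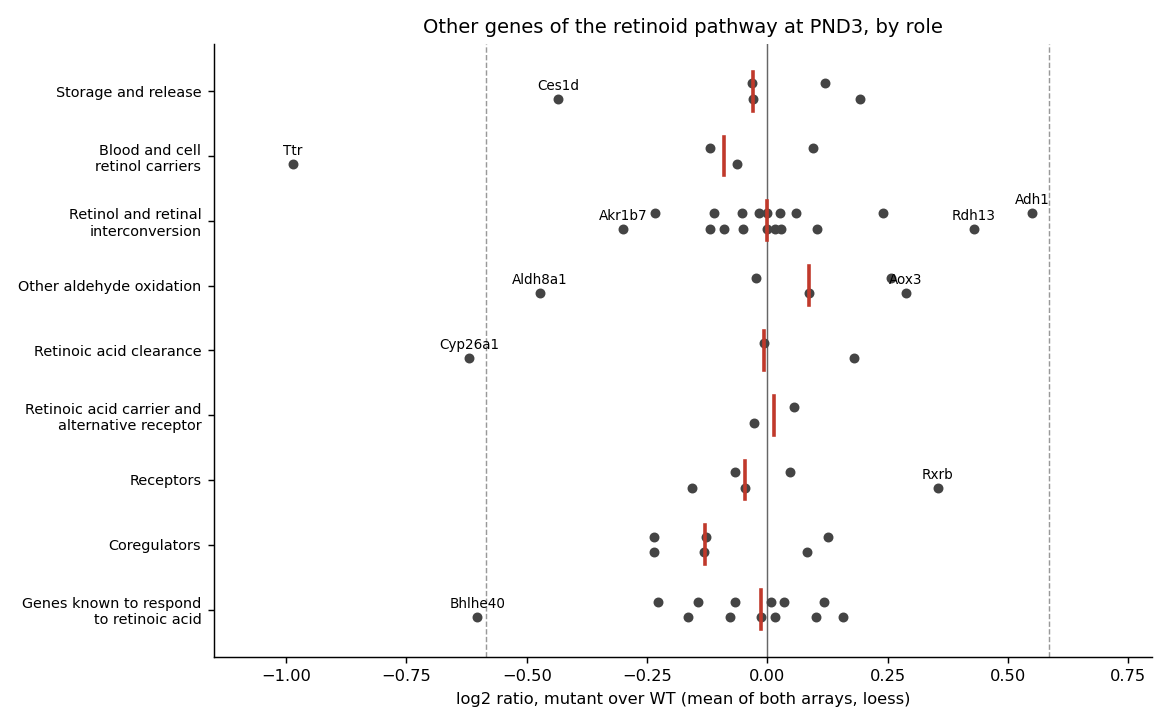
Log2 ratio of mutant over WT (mean of both arrays, loess) for the measured genes of the wider retinoid list, one point per gene in each role it is listed under, in rows by role with a red bar at the median of each row; dashed lines mark 1.5-fold. Most points lie near 0, Ttr is furthest left at -0.99, and Adh1 is furthest right at 0.55.

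Median centring moved the ratios of the bright probes downward, and by more than those of the dim ones. The mean ratio of Crabp2, the dimmest of these probes, moved upward, from -0.10 to 0.03. With median centring 0 of the 9 genes were at least 2-fold apart, beside 0.0287% of all genes higher and 0.22% lower. At 1.5-fold 1 was higher and 0 were lower, beside 0.105% higher and 1.22% lower, and 6 were above 0 on both arrays, beside 19.2%. Their median was 0.16 with this scaling, against -0.11 for all genes. With the scanner software's ratio 1 was at least 2-fold higher and 0 lower, beside 0.105% of all genes higher and 0.736% lower. At 1.5-fold 3 were higher, Crabp1 in addition to Aldh1a1 and Rbp4, and 0 were lower, beside 0.755% higher and 1.95% lower. Again 7 were above 0 on both arrays, beside 34.8%, and their median was 0.40. By the order of their mean ratios Aldh1a1 was first and Rbp4 second with each of these 3 scalings.

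**Figure D5:**
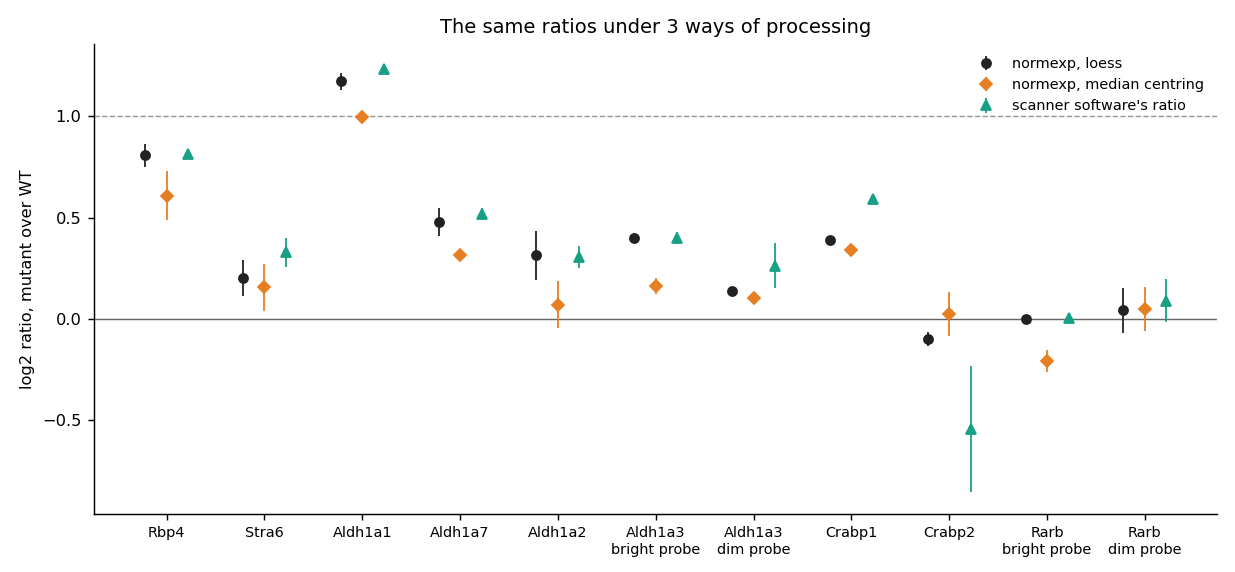
Log2 ratio of mutant over WT of each probe with loess (black circles), median centring (orange diamonds) and the scanner software's own ratio (green triangles); points are means of both arrays and bars span the array values. Aldh1a1 stays between 0.996 and 1.24, Crabp2 changes sign, and the bright Rarb probe moves between 0.00 and -0.21.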

How the data were processed

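The scanner files deposited by the authors hold spot and local background intensities, processed signals, quality flags and a log10 ratio of Cy5 over Cy3, per the file headers. The processed signals are background-subtracted and dye-normalized, per the file headers. Agilent Feature Extraction made them, in version 8.1 per the submitters' processing notes and in version 9.1.3.1 (protocol GE2-v5_91_0806) per the file headers. The value table deposited by the authors holds a log2 ratio of mutant over WT, whose scale and direction follow from its match to the scanner's ratio (r = 0.9996 and 0.9997 over 41136 probes, median 0 for each column).

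The normexp method removed background, with an offset of 50 that draws the ratios of dim probes toward 0. Ratios were normalized by loess in limma 3.58.1 (R 4.3.3), with control spots at weight 0, and turned to mutant over WT. Outlier spots were left out. The steps were tested on simulated data, in which only probes above a set level were changed, each by more than 2-fold. That test does not cover dim probes or ratios near 1.5-fold or 2-fold. The brightest probe that passed the filter stood for a gene, and a gene was counted when past the fold in the same direction on both arrays. Of 41174 probes, 22951 matched a RefSeq symbol. Where 1 pool was dim on both arrays, the loess ratio with offset 50 came from channel levels, with the dim level raised to the lowest level above background. With the other scalings and offsets no level was raised, so their counts over all genes follow a different rule. Promoter windows and gene spans are from RefSeq, GRCm38.p6.

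The retinoid genes, the wider list and the markers were chosen with earlier results of these data known. One gene of the wider list is not reported here. Named were the 9 genes, genes of the wider list past 1.5-fold, the 2 furthest from 0 in each role, the Cyp26 genes and the receptors. Named markers were the brightest 3 of a list or those past 1.5-fold, and Ddx3y, Kdm5d, Uty, Figla, Fst and Lrrn4 were added after their values were seen. The E15.5 intensities deposited by the authors were not used here, because their probe sets were not paired with genes, so no test was run.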

Additional observations from a re-analysis of the deposited data

How the results depend on the processing

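Over 156 alternative values, 121 moved by less than the technical SD of 0.12 (ratios, medians) or 1.5 times (counts), and 35 moved by more. A turn to the other side was scored only for genes past the fold, here Aldh1a1 alone, and 0 of its values turned. With median centring in place of loess, ratios were 0.996 for Aldh1a1, 0.070 for Aldh1a2, 0.16 for the bright Aldh1a3 probe, 0.32 for Aldh1a7, 0.61 for Rbp4, 0.025 for Crabp2 and -0.21 for the bright Rarb probe; these 2, which stood at -0.10 and 0.00 with loess, changed sign. The count of retinoid genes at least 2-fold apart was then 0, against 1, the median of the wider list was -0.19 and 3 of its genes were 1.5-fold apart, against 1. The scanner software's ratio and the authors' value table both gave 0.26 for the dim Aldh1a3 probe, 0.59 for Crabp1, -0.54 for Crabp2 and 0.33 for Stra6. Both also gave 176 of all genes at least 2-fold apart (22 higher and 154 lower), against 40 (7 and 33), and 2 of the wider list past 1.5-fold. An offset of 16 gave 70 of all genes, 61 lower, and 3 of the wider list, and an offset of 100 gave 4 higher. With the scanner's ratio, the value table and these offsets, genes were counted without raising dim levels, unlike the 40. Aldh1a2 stood at 0.44 by the first array alone and at 0.19 by the second alone. Each array alone gave 2 of the wider list, and the second alone gave 13 of all genes higher. The cause was not tested. Aldh1a1 was counted under every alternative run except median centring. No paired analysis was possible because PND3 had 1 pool per genotype, and the E15.5 samples, whose labels share numbers, were not tested; the E15.5 alternatives were not run. Signal over background limits Crabp2, whose mutant signal exceeded background on 1 of 2 arrays, and the ratios of dim probes also depend on the offset by its construction.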
